A study of Mus musculus with 2 samples.

Results

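The lysosomal genes examined here encode the hydrolases of the lysosome, its membrane proteins and the vacuolar proton pump that acidifies it. The rule that picks them reads gene names and no measured value, but the list and the roles were chosen with earlier results of these data known. In it 33 genes were listed. Every gene symbol that starts with Atp6v0 or Atp6v1, together with Atp6ap1 and Atp6ap2, was added, which gave 25 more. This made 58 of the 23284 gene symbols in the data. RNA was sequenced from 2 mouse melanoma cultures of C57BL/6 strain: B16, and B16/BL6, an invasive subline derived from it, in a search for genes related to metastasis. B16 was grown in DMEM and B16/BL6 in RPMI, each with 10% fetal bovine serum and 1% penicillin/streptomycin, so effects of line and of medium cannot be told apart. Each line had 1 library, so values carry no replicate error, nothing was tested, and any difference is one between these libraries.

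Expression was in FPKM, which divides a gene's fragments by its transcript length and by the size of the library, so that levels of different genes can be set beside each other. Depth was not recorded. Very low values moved in steps: of 379 genes under 0.1 FPKM on both sides, 150 shared 1 ratio, 0.906 (B16/BL6 over B16), which puts the B16/BL6 library at about 1.10 times the depth of B16 if each was scaled to its own fragments. The melanocyte identity genes, such as Tyr, Mlana and Sox10, were all at 10.6 FPKM or more in both libraries, and their list of 7 summed to 12082 FPKM (B16) and 18525 FPKM (B16/BL6), a difference whose part in the values below was not tested. The abundant control Actb was at 1789 and 1747 FPKM. Of 15 macrophage markers, 2 (Cd68 and Lyz2) reached 1 FPKM in each library, with the whole list summing to 7.98 and 7.46 FPKM, and C1qa listed at 0 in both. Fibroblast markers summed to 1.93 and 13.8 FPKM (0 and 2 of 10 at 1 FPKM, with Col3a1, Dcn, Lum and Thy1 listed at 0 in both). The 2 were Col1a2, at 0.367 and 5.32 FPKM, and Pdgfrb, at 0.104 and 7.43 FPKM, and their part in the values below was not tested. Osteoclast markers summed to 7.45 and 10.1 FPKM, with 2 of 7 at 1 FPKM in each (Itgb3 at 5.88 and 5.33 FPKM, Nfatc1 at 1.26 and 4.67 FPKM) and Calcr, Ocstamp and Oscar listed at 0 in both. Endothelial markers summed to 0.0719 and 0.0191 FPKM and keratinocyte ones to 0.108 and 0.0976 FPKM.

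Lysosomes break down proteins, glycans and lipids with hydrolases that work at low pH. Most of these enzymes are made in the endoplasmic reticulum and delivered by the mannose 6-phosphate route, and the pump keeps the lumen acidic. In pigment cells the lysosome is related to the melanosome, with which it shares membrane proteins and the pump. Transcription factors of the MiT/TFE family (MITF, TFEB, TFE3 and TFEC) bind E-boxes of the sequence CACGTG, and many lysosomal genes carry such a site near their start.

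Of the lysosomal genes, 1 passed 2-fold between the libraries, and the medians of the roles within the list lay on both sides of 0. Of the 58 genes, 48 reached 1 FPKM in one library or both. Among these 48, 1 gene stood 2-fold or more above its B16 value in B16/BL6 and 0 stood 2-fold or more below it (log2 scale, after adding 1 FPKM). Over all 10709 genes at that level, 3.31% were at least 2-fold higher and 3.16% at least 2-fold lower, 6.46% in all, against 2.08% of the lysosomal genes. That order depends on the limit and the scale: at 1.5-fold 25% of the lysosomal genes and 17.9% of all genes were called, and on the TPM scale at 2-fold 8.16% and 8.46%. The one gene past 2-fold was Smpd1, which encodes acid sphingomyelinase. The median log2 difference (B16/BL6 minus B16) of the 48 genes was 0.12, beside 0.0053 for all genes, and 29 of the 48 (60.4%) were above 0, beside 50.6% of all genes. When each library was rescaled to one common sum (the TPM scale), the median of all genes moved to -0.16 and that of the lysosomal genes to -0.051. The distance between the lysosomal median and that of all genes was 0.11 on both scales. The TPM scale also moved the genes called at 2-fold from 354 higher and 338 lower to 369 higher and 583 lower, over all genes.

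By role, the medians ran from -0.39 for the cysteine cathepsins to 0.67 for the genes of lipid breakdown and lipid handling. The roles were set with earlier results of these data known, so these medians and sign counts only describe the values. The cathepsin median was -0.22 with a pseudocount of 5 and -0.60 on the TPM scale, and the lipid median was 0.26 when each gene was centred on the median of its chromosome. The 6 cysteine cathepsin genes at 1 FPKM or more were all below 0, also when each was centred on the median of its chromosome. The other alternatives could not have turned their sign. Pseudocount and minimum leave a sign as it is, and the TPM and upper-quartile scales lower B16/BL6 against B16. Of the 7 lipid genes, 6 were above 0, but 4 on the TPM scale. The 9 glycan hydrolase genes had a median of -0.13, with 6 below 0, or all 9 on the TPM scale and 7 after upper-quartile scaling. The pump had 14 of 18 genes above 0 and a median of 0.23 (11 of 19 and 0.054 on the TPM scale). Together the lysosomal genes summed to 8983 (B16) and 9268 FPKM (B16/BL6), which was 1.79% and 1.64% of each library's summed FPKM.

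**Figure D1:**
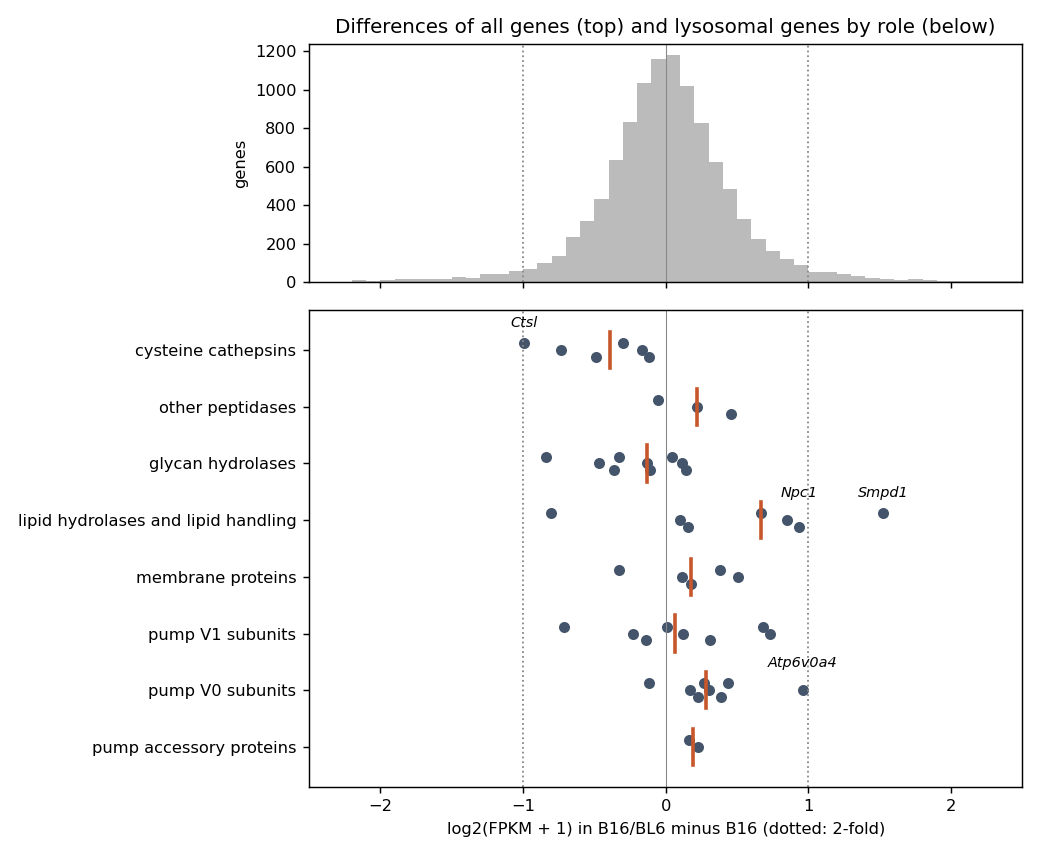
The upper panel counts the 10709 genes at 1 FPKM or more by their log2 difference, log2(FPKM + 1) in B16/BL6 minus B16. The axis runs from -2.5 to 2.5, so genes further apart are not shown. The lower panel shows each of the 48 lysosomal genes at that level as a point, by role, with the median of a role as a bar. Dotted lines mark 2-fold: Smpd1 alone lies beyond them, Ctsl, Npc1 and Atp6v0a4 lie just inside, and the cysteine cathepsins all lie to the left of 0.

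Sequences near the start of these genes are shown because the MiT/TFE site CACGTG is the known regulatory element that many of them share. RefSeq promoter sequences of GRCm38.p6 (the assembly that mm10 names), from 250 bases before to 50 bases after a gene's start, matched 47 of the 58 genes by symbol. The 6 letters CACGTG, which read the same on both strands, were found in the windows of 15 of the 47 genes (31.9%), beside 7.15% of all 32851 promoter windows and 12.4% of the 7764 genes at 1 FPKM or more that matched a window. The longer form TCACGTGA, also its own complement and containing CACGTG, was found in 7 of the 47 (14.9%), beside 0.974% of all windows and 2.52% of those 7764 genes. The form TCATGTG, searched on both strands, was found in 7 of the 47 (14.9%), beside 3.77% and 2.58%. The 47 include genes under 1 FPKM, which the 7764 do not. Of the 39 lysosomal genes at 1 FPKM or more with a window, 14 held CACGTG, 7 TCACGTGA and 6 TCATGTG. The 7 genes with TCACGTGA were Ctsa, Ctsd, Gla, Mcoln1, Atp6v0d1, Atp6v0e and Atp6v1a, and the 8 with CACGTG alone were Ctsf, Ctsl, Lamp1, Gaa, Glb1, Naglu, Sgsh and Atp6v0b. A match is a run of letters and was not measured as a bound site.

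The windows below run 5′ to 3′ on the gene's strand, lie before the start in the promoter table, and have the searched letters in capitals. They show members that carry the letters and stood on either side of 0, from Ctsl and Sgsh to Atp6v1a, and, for contrast, Smpd1, with the largest difference and none of the 3 motifs in the 250 bases before its start. The windows of Ctsd, Mcoln1, Ctsl and Sgsh reach into an exon of another transcript of the same gene in GENCODE M21, and that of Gla into an exon of its neighbour Hnrnph2, so they are kept to 30 bases. The Ctsl and Atp6v1a windows lie within the gene's outer bounds, the latter in no annotated exon.
Ctsd (chr7:142387908-142387937, minus strand): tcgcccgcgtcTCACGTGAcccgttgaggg
Gla (chrX:134601182-134601211, minus strand): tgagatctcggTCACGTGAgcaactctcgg
Mcoln1 (chr8:3500462-3500491, plus strand): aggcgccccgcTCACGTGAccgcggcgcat
Atp6v1a (chr16:44139369-44139406, minus strand): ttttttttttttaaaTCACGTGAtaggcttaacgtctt
Lamp1 (chr8:13159085-13159160, plus strand): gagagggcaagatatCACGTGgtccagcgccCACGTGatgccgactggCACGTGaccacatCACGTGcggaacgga
Ctsl (chr13:64370739-64370768, minus strand): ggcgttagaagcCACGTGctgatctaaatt
Sgsh (chr11:119355522-119355551, minus strand): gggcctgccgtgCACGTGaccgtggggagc
Smpd1 (chr7:105554260-105554359, plus strand): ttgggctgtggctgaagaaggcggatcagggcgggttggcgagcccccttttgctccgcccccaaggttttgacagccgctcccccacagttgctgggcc

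Lamp1 carried 4 copies of CACGTG in the 76 bases before its start, and Gla carried 2 copies of TCACGTGA, of which 1 is printed. The genes with these letters did not share a direction: the 7 with TCACGTGA ran from a log2 difference of -0.36 (Gla) to 0.73 (Atp6v1a). Of 39 genes with a promoter window and 1 FPKM or more, the 14 with CACGTG had a median of 0.029 and the others 0.14. For TCACGTGA the medians were 0.18 with it and 0.12 without it.

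The cysteine cathepsins, papain-like proteases of the lysosome, were lower in B16/BL6 at every gene that reached 1 FPKM. Ctsl, which encodes cathepsin L (chromosome 13, 64361890 to 64370772, in GRCm38 coordinates as below), stood at 115 (B16) and 57.2 FPKM (B16/BL6), a ratio of 2.005 toward B16. Its log2 difference with the pseudocount of 1 was -0.99, just inside 2-fold, and it passed 2-fold with a pseudocount of 0.1, on the TPM scale (-1.17) and after upper-quartile scaling (-1.04). Of the 3474 genes averaging 20 to 100 FPKM, 3.31% were as far apart in either direction. Chromosome 13 as a whole had a median of -0.32, and Ctsl centred on that median was at -0.67.

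Ctsh, which encodes an aminopeptidase, stood at 6.85 (B16) and 3.71 FPKM (B16/BL6) (log2 difference -0.74). Ctso, a low gene that reached 1 FPKM in B16 alone, was at 1.67 and 0.910 FPKM. Ctsc, which encodes the dipeptidyl peptidase that activates granule proteases, was at 29.0 and 23.3 FPKM. The 2 most abundant genes of the group differed least. Ctsb, for cathepsin B, was at 170.2 and 152 FPKM (-0.17). Ctsz, for the carboxypeptidase cathepsin Z, was at 383 and 352 FPKM (-0.12). In each library Ctsz was the highest and Ctsb the next.

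The other cysteine cathepsin genes were under 1 FPKM in both libraries. Ctsk, known from osteoclasts, and Ctsf were at 0.427 and 0.410 FPKM in B16 and both listed at 0 in B16/BL6. Ctss, known from antigen-presenting cells, was at 0.237 and 0.0716 FPKM, and after the step ratio between the libraries these values stood as 3 to 1, so few fragments may lie behind them. Ctsk and Ctss are neighbours on chromosome 3, with 17.4 kb between them.

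Of the 3 member peptidases outside this protease class, 2 were above 0 and 1 was below. Ctsd, which encodes the aspartic protease cathepsin D (chromosome 7, 142375910 to 142387827), was the most abundant hydrolase gene, at 1378.5 (B16) and 1605 FPKM (B16/BL6). It ranked 30 and 26 among all symbols, with a log2 difference of 0.22, or 0.049 on the TPM scale. Tpp1, for tripeptidyl peptidase 1, which is mutated in a childhood neuronal ceroid lipofuscinosis, was at 84.2 and 116 FPKM (0.46). Ctsa, for protective protein/cathepsin A, a carboxypeptidase that also stabilises β-galactosidase and neuraminidase, was at 56.7 and 54.5 FPKM (-0.055, or -0.22 on the TPM scale).

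**Figure D2:**
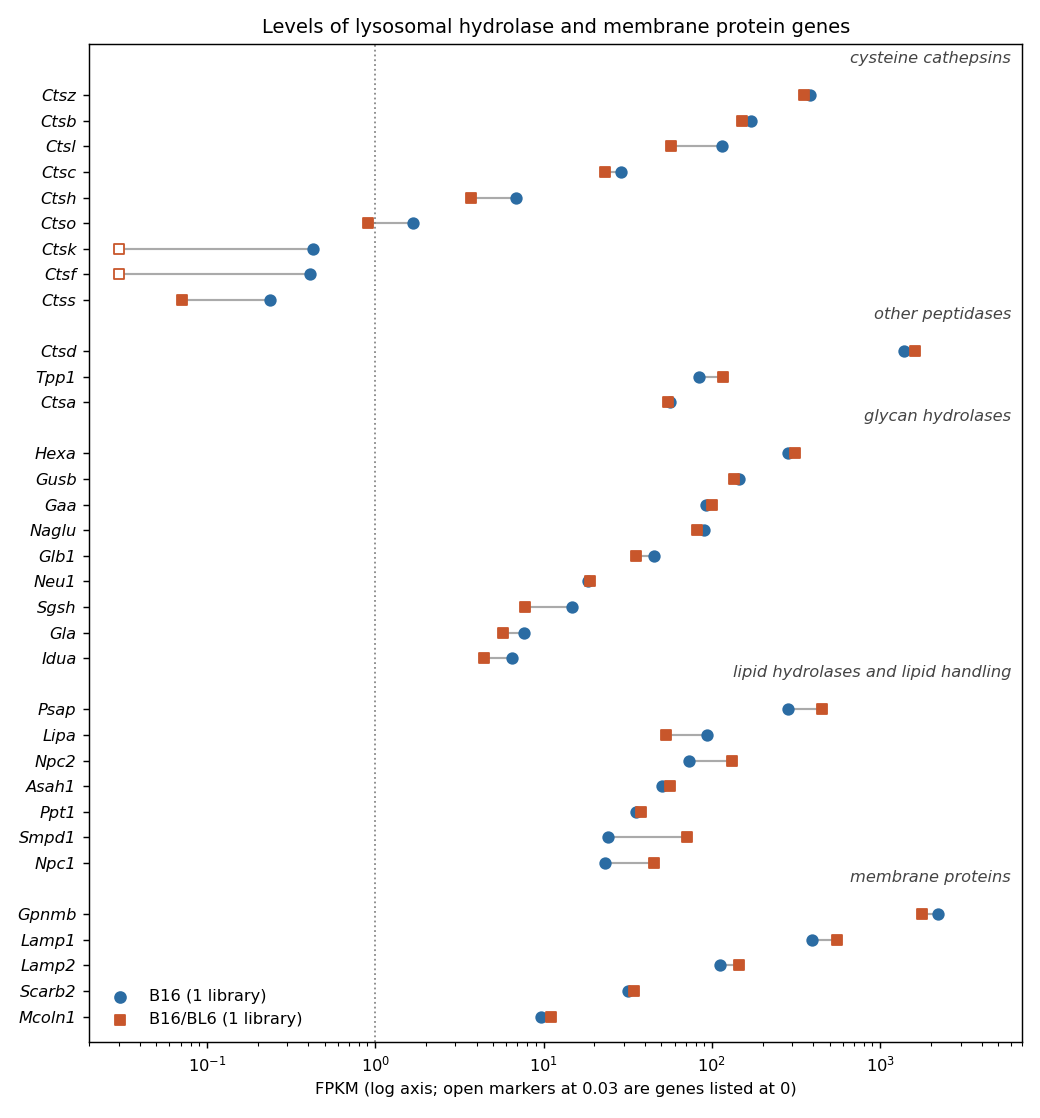
Each row is a lysosomal gene outside the pump, with its FPKM in the B16 library (circle) and the B16/BL6 library (square) on a log axis, grouped by role, and open squares at the left edge stand for genes listed at 0. The squares of the cysteine cathepsins all lie left of the circles, and the widest gap among genes above the dotted line at 1 FPKM is that of Smpd1, at 24.3 and 71.6 FPKM.

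Among the genes of lipid breakdown and lipid handling was the largest difference of the 48, that of Smpd1. At 1.5-fold, 4 of the 7 were higher in B16/BL6, Smpd1 among them, and 1 (Lipa) was lower. Of all genes, 17.9% were past 1.5-fold in either direction. Smpd1 (chromosome 7, 105554360 to 105558389), whose enzyme cleaves sphingomyelin to ceramide and is deficient in Niemann-Pick disease types A and B, stood at 24.3 (B16) and 71.6 FPKM (B16/BL6). This was a ratio of 2.95 and a log2 difference of 1.52, which stayed between 1.37 and 1.56 in every alternative. Of the 3474 genes averaging 20 to 100 FPKM, 1.27% were as far apart. Tpp1 lies 186 kb from Smpd1 on the same chromosome, whose median was 0.071.

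Npc1 and Npc2 encode the proteins that carry cholesterol out of the lysosome, the first in the membrane and the second in the lumen. Npc1 (chromosome 18, 12189694 to 12236506) stood at 23.2 (B16) and 45.3 FPKM (B16/BL6), a ratio of 1.95 and a log2 difference of 0.94. Chromosome 18 had a median of -0.29, and Npc1 centred on it was at 1.23, past 2-fold. Npc2 (chromosome 12, 84754559 to 84773112) was at 73.2 and 133 FPKM, a ratio of 1.81 and a log2 difference of 0.85. Both genes were higher in B16/BL6 in every setting.

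Psap, which encodes prosaposin, the precursor of the saposins that present sphingolipids to their hydrolases (chromosome 10, 60277628 to 60302600), was at 285 and 454 FPKM (0.67). Genes of chromosome 10 had a median of 0.41, the highest of any chromosome, and Psap centred on it was at 0.26. Asah1, for acid ceramidase, which acts on the product of acid sphingomyelinase, was at 50.5 and 56.5 FPKM (0.16, or -0.0093 on the TPM scale). Ppt1, for palmitoyl-protein thioesterase 1, was at 35.5 and 38.1 FPKM (0.10, or -0.067 on the TPM scale).

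Lipa went against the rest of its group. It encodes lysosomal acid lipase, which frees cholesterol and fatty acids from the esters brought in by lipoproteins (chromosome 19, 34492316 to 34527474). It stood at 94.0 (B16) and 53.4 FPKM (B16/BL6), a ratio of 1.76 toward B16 and a log2 difference of -0.80. Thus the gene of the lysosomal cholesteryl ester hydrolase was lower in the B16/BL6 library, while both genes of cholesterol export were higher.

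Glycan hydrolase genes lay mostly below 0, and the largest difference was that of Sgsh. Sgsh encodes N-sulfoglucosamine sulfohydrolase, a sulfatase of heparan sulfate breakdown that is deficient in mucopolysaccharidosis type IIIA (chromosome 11, 119343489 to 119355510). It stood at 14.7 (B16) and 7.76 FPKM (B16/BL6), a ratio of 1.89 toward B16 (-0.84, or -1.04 on the TPM scale, past 2-fold). Of its exon bases, 21.9% are shared with Card14 on the opposite strand, which was at 4.51 and 3.16 FPKM. Gaa, for acid α-glucosidase, the glycogen-degrading enzyme, lies 58.0 kb away and was at 92.6 and 100.1 FPKM (0.11, or -0.057 on the TPM scale).

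Other enzymes of glycosaminoglycan breakdown differed less. Idua, for α-L-iduronidase, was at 6.52 and 4.43 FPKM (-0.47). Naglu, for α-N-acetylglucosaminidase, was at 90.0 and 82.1 FPKM (-0.13). Gusb, for β-glucuronidase, was at 145 and 135 FPKM (-0.11). All 3 were lower in B16/BL6 by less than 1.5-fold as deposited, though Idua was past it on the TPM scale (-0.66).

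Of the enzymes that trim glycolipids and glycoproteins, Hexa, for the α subunit of β-hexosaminidase, was the most abundant glycan hydrolase gene, at 283 and 313 FPKM (0.14, or -0.027 on the TPM scale). Glb1, for β-galactosidase, was at 45.1 and 35.6 FPKM (-0.33), and Gla, for α-galactosidase A, at 7.70 and 5.75 FPKM (-0.36). Neu1, for neuraminidase 1, was at 18.4 and 18.99 FPKM (0.047, or -0.12 on the TPM scale). Summed over the 9 glycan hydrolase genes the libraries held 704 and 702 FPKM.

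Among membrane proteins, the structural glycoproteins were higher in B16/BL6. Lamp1 (chromosome 8, 13159161 to 13175338), one of the main proteins of the lysosomal membrane, stood at 391 (B16) and 556 FPKM (B16/BL6) (0.51). Lamp2, its paralog, which also acts in chaperone-mediated autophagy, was at 111 and 145 FPKM (0.38). Scarb2, for LIMP-2, the receptor that brings glucocerebrosidase to the lysosome, was at 31.9 and 34.6 FPKM (0.12, or -0.051 on the TPM scale). Mcoln1, for the calcium channel TRPML1, was the lowest of the group, at 9.64 and 11.02 FPKM (0.18, or 0.021 on the TPM scale).

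Gpnmb, which encodes a glycoprotein of melanosomes and lysosomes, was the most abundant of all 58 genes. It stood at 2217 (B16) and 1764 FPKM (B16/BL6), ranks 17 and 24 among all symbols (chromosome 6, 49036518 to 49058182). The log2 difference was -0.33, or -0.51 when centred on the median of chromosome 6 (0.18), and it was the one membrane protein gene of the 5 below 0. Ctsd and Gpnmb thus held the top places in both libraries, and they differed in opposite directions.

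The proton pump has a cytosolic V1 sector that splits ATP and a membrane V0 sector that carries protons, and several of its subunits are encoded by alternative genes. In B16 the V1 positions, each summed over its genes, ran from 61.8 FPKM (H) to 510.0 FPKM (E), a ratio of 8.25. In B16/BL6 they ran from 56.1 FPKM (H) to 316 FPKM (F), a ratio of 5.63. The V0 positions, with Tcirg1 counted for position a although it lies outside the 58 genes, ran from 123 FPKM (d) to 376 FPKM (e) in B16 and from 161 to 389 FPKM in B16/BL6, ratios of 3.05 and 2.41. For V1 the narrower range in B16/BL6 rests on position E: without it, a choice made after seeing the data, the ratios of highest to lowest were 4.70 in B16 and 5.63 in B16/BL6. For V0 the ratio was smaller in B16/BL6 whichever position was left out.

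**Figure D3:**
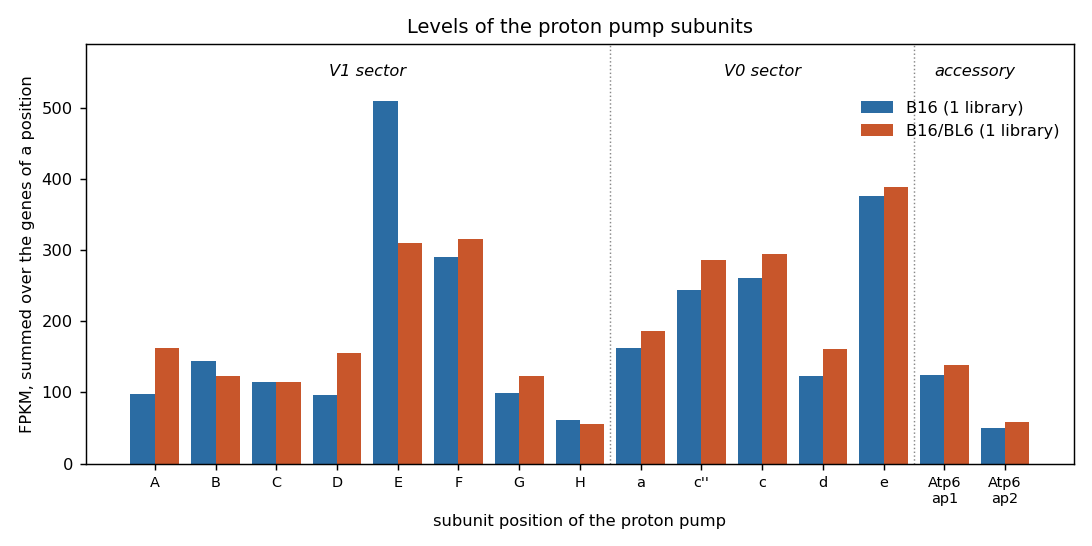
Bars give the FPKM of each subunit position of the proton pump, summed over the genes that encode it, in the B16 library (left bar) and the B16/BL6 library (right bar). Position E stands highest in B16 at 510.0 FPKM and at 310.4 FPKM in B16/BL6, while positions A and D are the V1 positions with the largest ratios toward B16/BL6.

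The largest differences in the pump, Atp6v0a4 aside, were those of 3 V1 genes. Atp6v1e1 (chromosome 6, 120795244 to 120822698), for the E subunit of the peripheral stalk, stood at 510.0 (B16) and 310.4 FPKM (B16/BL6) (-0.71, or -0.90 when centred on chromosome 6). Atp6v1a (chromosome 16, 44085402 to 44139702), for the catalytic A subunit, was at 97.6 and 162 FPKM (0.73). Atp6v1d (chromosome 12, 78842982 to 78862008), for the D subunit of the central rotor, was at 96.7 and 155 FPKM (0.68). The ratio of E to A was therefore 5.22 in B16 and 1.91 in B16/BL6, and that of E to D was 5.28 and 1.997.

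The remaining V1 genes at 1 FPKM or more were within 1.5-fold. Atp6v1b2, for the non-catalytic B subunit, was at 145 and 124 FPKM (-0.23). Atp6v1f was at 291 and 316 FPKM and Atp6v1c1 at 114 and 115 FPKM. Atp6v1g1, for a stalk subunit, was at 98.3 and 122 FPKM (0.31), and Atp6v1h, for the regulatory H subunit, at 61.8 and 56.1 FPKM (-0.14). The median of the 8 V1 genes was 0.066, but -0.16 on the TPM scale (9 genes) and -0.023 when chromosomes were centred.

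At positions B, C, E and G a single gene held 99.3% or more of the summed FPKM in both libraries. Atp6v1b1, known from kidney and inner ear, was at 0.0527 FPKM in the B16 library with B16/BL6 listed at 0, and Atp6v1c2 was listed at 0 in B16 but at 0.0596 FPKM in B16/BL6. Atp6v1g2, known from brain, was at 0.704 and 0.574 FPKM, and after the step ratio these values stood as 10 to 9. Atp6v1e2 and Atp6v1g3 were listed at 0 in both libraries.

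Of the 8 V0 genes at 1 FPKM or more, 7 were above 0 as deposited and on the TPM scale, with medians of 0.29 and 0.12. On the TPM scale Atp6v0c (0.0028) and Atp6v0b (0.054) lay close to 0. Atp6v0c and Atp6v0b, for the c and c'' subunits of the proton-carrying ring, were at 262 and 295 FPKM and at 244 and 286 FPKM. Atp6v0d1, whose subunit joins the ring to V1, was at 123 and 161 FPKM (0.38). Of the genes for the small e subunit, Atp6v0e was at 243 and 224 FPKM (-0.12) and Atp6v0e2 at 133 and 164 FPKM (0.30), so Atp6v0e held 64.6% of that position in B16 and 57.7% in B16/BL6. Atp6v0d2, known from osteoclasts, and the pseudogene Atp6v0c-ps2 were listed at 0 in both libraries.

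Position a, which directs the pump to its membrane, was shared among several genes. Atp6v0a1 was at 61.1 (B16) and 83.2 FPKM (B16/BL6) (0.44), and Atp6v0a2 at 50.0 and 60.4 FPKM (0.27). Tcirg1, for the a3 form, was at 50.7 and 39.9 FPKM (-0.34). Their shares of the position were 37.5%, 30.7% and 31.1% in B16, and 44.6%, 32.4% and 21.4% in B16/BL6. Atp6v0a4, known from kidney, was at 1.17 and 3.23 FPKM, a ratio of 2.76 (0.96 with the pseudocount of 1), and passed 2-fold with a pseudocount of 0.1 (1.39) and on the TPM scale (1.01). Of its 3566 exon bases, 259 are shared with D630045J12Rik on the same strand (7.23 and 8.36 FPKM).

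The accessory proteins Atp6ap1, which aids assembly of the V0 sector, and Atp6ap2, the prorenin receptor, were at 124 and 139 FPKM (0.16, or -0.0065 on the TPM scale) and at 50.4 and 59.2 FPKM (0.23). Atp6v0a1 and Naglu lie 6.37 kb apart on chromosome 11 and had opposite signs. Of the other neighbouring pairs, Smpd1 and Tpp1 were both above 0, and Gaa and Sgsh had opposite signs as deposited and the same sign on the TPM scale.

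Lysosomal genes outside the 58 were counted in the same way, to be read beside the 6.46% of all genes past 2-fold. Of 30 genes of other hydrolases and cofactors at 1 FPKM or more, 0 passed 2-fold toward B16/BL6 and 1 toward B16, and their median was 0.0084. The 1 gene was Hyal1, for hyaluronidase 1, at 12.7 and 2.21 FPKM (-2.09). Hgsnat, for the membrane acetyltransferase of heparan sulfate breakdown, was at 111 and 58.9 FPKM (-0.90, or -1.07 on the TPM scale). Ids, for iduronate 2-sulfatase, was at 11.9 and 21.7 FPKM (0.81). Enzymes of heparan sulfate breakdown thus lay on both sides of 0.

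Of 29 other lysosomal membrane proteins and transporters, 1 passed 2-fold in each direction, with a median of -0.030. Abcd4, for a transporter of vitamin B12 release, was at 4.10 and 9.70 FPKM (1.07, but 0.99 on the TPM scale and 0.90 when centred). Cln3, the gene of juvenile neuronal ceroid lipofuscinosis, was at 3.80 and 0.759 FPKM (-1.45). Cd63, for a tetraspanin of late endosomes and melanosomes, lies on chromosome 10 and was at 383 and 728 FPKM (0.93, or 0.51 when centred). Slc29a3, a nucleoside transporter gene also on chromosome 10, was at 4.68 and 8.11 FPKM, Slc17a5, for the sialic acid transporter, at 7.47 and 5.07 FPKM, and Laptm4a at 205 and 282 FPKM.

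Among 12 further pump genes (Tcirg1, Rnasek and assembly factors), 0 passed 2-fold in either direction, or 1 was lower when chromosomes were centred, and the median was -0.18 (-0.035 when centred). Tmem199, an assembly factor of the V0 sector, was at 59.4 and 39.1 FPKM (-0.59), Dmxl2 at 30.7 and 23.2 FPKM, Wdr7 at 8.75 and 6.47 FPKM and Vma21 at 10.7 and 14.6 FPKM (0.41). Of 27 genes that deliver hydrolases to lysosomes, 0 passed 2-fold, with a median of 0.11 (-0.060 on the TPM scale). As deposited, 20 of the 27 were above 0, beside 50.6% of all genes. That count was 16 after upper-quartile scaling and 12 on the TPM scale. Ap3d1, for the δ subunit of the AP-3 adaptor on chromosome 10, was at 37.5 and 73.5 FPKM (0.95, or 0.54 when centred). Its partner Ap3b1, on chromosome 13, was at 38.2 and 26.6 FPKM (-0.50, or -0.18 when centred). Igf2r, the cation-independent mannose 6-phosphate receptor, was at 30.2 and 42.1 FPKM (0.47), and the adaptor gene Gga3 at 11.1 and 6.85 FPKM (-0.62).

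The genes of the 4 MiT/TFE factors were each within 1.5-fold between the libraries, and protein was not measured. Mitf was at 97.1 (B16) and 90.7 FPKM (B16/BL6) (-0.10), Tfe3 at 18.7 and 25.6 FPKM (0.43), Tfeb at 9.25 and 10.5 FPKM (0.16) and Tfec at 0.173 and 0.157 FPKM. Mitf was the highest of the 4 in both libraries. Of 16 genes of these factors and their control at the lysosome, 0 passed 2-fold, with a median of 0.12 (-0.039 on the TPM scale). Flcn, for folliculin, a regulator of TFE3 and TFEB, was at 36.9 and 53.6 FPKM (0.53). Lamtor3 and Lamtor1, for subunits of the Ragulator complex, which holds the mTORC1 kinase at the lysosome, were at 16.7 and 26.7 FPKM (0.64) and at 114 and 135 FPKM (0.25).

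**Figure D4:**
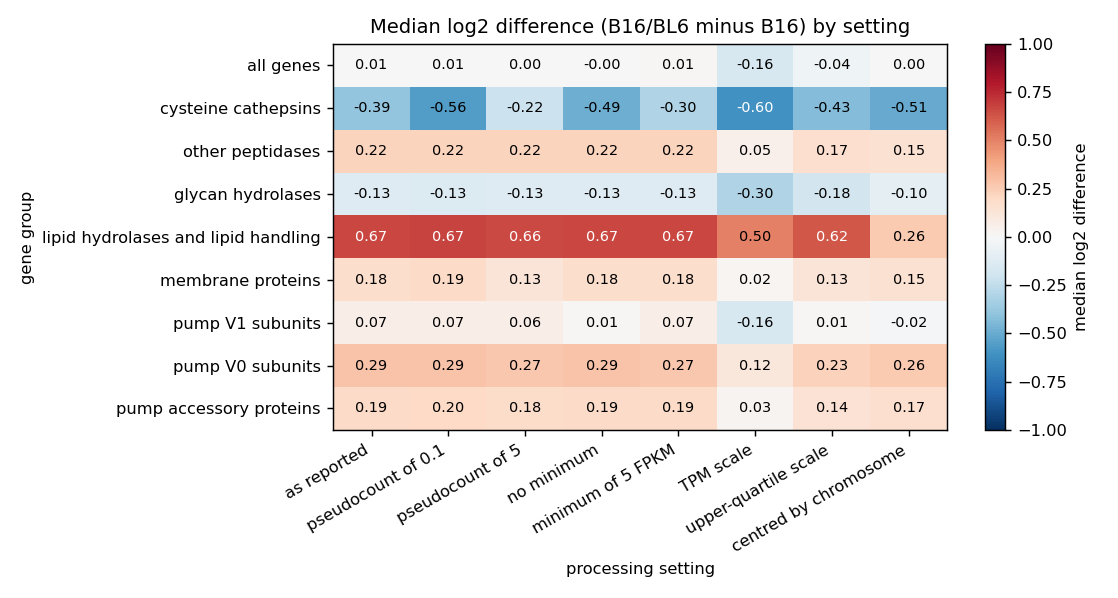
Each cell gives the median log2 difference (B16/BL6 minus B16) of a gene group in 1 processing setting, coloured from blue (lower in B16/BL6) to red (higher). The cysteine cathepsins and glycan hydrolases are below 0 in each column and the lipid group above 0, with its lowest value, 0.26, when chromosomes are centred, while the V1 subunits are -0.16 on the TPM scale and -0.023 when chromosomes are centred.

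Exons of 18 of the 58 genes overlap an exon of another gene in GENCODE M21, and in 7 of them over 10% of the exon bases are shared. The largest share among members at 1 FPKM or more is that of Ctsd, with 31.5% of its exon bases shared with Gm49369 on the same strand, which strand cannot separate. On the opposite strand, Ctsa overlaps Pltp (8.51 and 26.2 FPKM), Ctsb overlaps Fdft1 (8.61 and 16.4 FPKM) and Ctsl overlaps the predicted gene Gm47123. The library kit was stranded, but the sources used here do not say whether the counting used strand, so reads of partners on opposite strands cannot be told apart either.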

How the data were processed

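The labels name 1 library of B16 and 1 of B16/BL6, made with a stranded mRNA kit from total RNA. Each deposited file gives 1 FPKM value a gene symbol, per the file headers. Cufflinks 2.2.1, TopHat2 2.0.13, SAMtools 0.1.19 and Bowtie2 2.2.3 were used with the mm10 build, per the submitters' processing notes. Not given in the sources used here were their order, their settings, the annotation, the handling of multiply mapped reads and any read count. Reads of near-identical copies may have been split or dropped. Python 3.11.15 with pandas 2.3.3 was used.

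Differences are B16/BL6 minus B16 after log2(FPKM + 1), a scale that understates the change of low genes. The 10709 genes that reached 1 FPKM in one library or both were compared, and 2-fold was the limit for a call. FPKM is not a count and there was 1 library per line, so no test was run. Positions came from RefSeq on GRCm38.p6, by symbol or by a synonym of a single gene, for 23040 of 23284 symbols. List genes under an older symbol were matched the same way. The calling step was checked on a copy of the B16 values with known changes put in and no noise added. That checks the arithmetic of the calls and not their accuracy. Alternatives were pseudocounts of 0.1 and 5, no minimum or 5 FPKM, the TPM scale, a common upper quartile, centring each chromosome at its median, and a 1.5-fold limit.

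The members, the pathway and marker lists and the roles were chosen with earlier results of these data known. Every member is named. From each pathway list, genes at least 2-fold apart and up to 4 more with the largest differences among those at 5 FPKM or more are named, with Tcirg1 and the MiT/TFE genes whatever their values. Some genes that this rule names are not reported here. Markers of other cell types are named where they reached 1 FPKM, and some at 0 in both libraries are named too. Overlapping exons and the partners named with them came from GENCODE M21.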

Additional observations from a re-analysis of the deposited data

How the results depend on the processing

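Of the 48 lysosomal genes at 1 FPKM or more, 39 kept the sign of their difference in each alternative that gives one (20 above 0 and 19 below 0). There were 7 such alternatives, or 6 for Ctso and Atp6v0a4. The 9 genes that changed sign were all above 0 as deposited. Pseudocount and minimum cannot change a sign, and the TPM and upper-quartile scales both lower B16/BL6 against B16. Only centring by chromosome could therefore have turned a gene that was below 0. Smpd1 passed 2-fold in every setting. The members at least 2-fold higher and lower were 1 and 0 as reported, 2 and 1 with a pseudocount of 0.1 (Atp6v0a4 and Ctsl added), 2 and 2 on the TPM scale (Atp6v0a4, Ctsl and Sgsh added), 1 and 1 after upper-quartile scaling (Ctsl added), 2 and 0 with chromosomes centred (Npc1 added) and 7 and 5 with a 1.5-fold limit. Over all genes the 354 higher became 151 with a pseudocount of 5 and 1005 at 1.5-fold, and the 338 lower became 511 with a pseudocount of 0.1, 118 with one of 5, 212 with a minimum of 5 FPKM, 583 on the TPM scale and 917 at 1.5-fold. The median of the lysosomal genes turned from 0.12 to -0.051 on the TPM scale, where the median of all genes was -0.16. The median of the V1 subunits turned from 0.066 to -0.16 on the TPM scale and to -0.023 with chromosomes centred. No paired analysis was possible because there was 1 library per line. Absolute depth is unknown, so no interval is given for any value, and values below 1 FPKM may rest on few fragments.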

Other observations

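Autophagy genes, whose products bring cytoplasm to the lysosome, formed a separate list. Of 32 at 1 FPKM or more, 0 passed 2-fold toward B16/BL6 and 1 toward B16 (1 and 0 when chromosomes were centred), beside 6.46% of all genes. In the list 18 were below 0, and the median was -0.10 (-0.27 on the TPM scale). Pik3c3, for the class III phosphoinositide 3-kinase, lies on chromosome 18 and was at 10.5 (B16) and 4.68 FPKM (B16/BL6) (-1.02, or -0.73 when centred on that chromosome). Sqstm1, for the cargo receptor p62, was at 663 and 1266 FPKM (0.93, or 1.03 when centred, past 2-fold). Atg4d was at 23.0 and 37.8 FPKM (0.69), Atg16l1 at 9.85 and 5.97 FPKM (-0.64) and Atg4a at 8.31 and 5.12 FPKM (-0.61).

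Genes of cathepsin inhibitors were measured too. Of 9 cystatin and related genes, 5 were at 1 FPKM or more and 0 passed 2-fold, beside 6.46% of all genes. Cst3, for cystatin C, a secreted inhibitor of cysteine cathepsins, was at 641 (B16) and 612 FPKM (B16/BL6) (-0.067), and Cstb, for the cytosolic cystatin B, at 213 and 238 FPKM (0.16, or -0.011 on the TPM scale and -0.25 when centred). Cst6 was at 13.5 and 14.3 FPKM (0.079, or -0.083 on the TPM scale), and Serpinb6a at 104 and 71.4 FPKM (-0.54, or -0.21 when centred). The summed FPKM of the cysteine cathepsin genes was 706 in B16 and 589 in B16/BL6.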
